A study of Homo sapiens with 6 samples.

Results

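The genes of the histone proteins were examined in BCWM1 cells, a human line established from Waldenström macroglobulinemia, which is a lymphoma of IgM-secreting B cells. Members were all probe sets whose platform annotation gives 1 gene symbol that begins with a histone prefix (H1-, H2A, H2B, H3-, H3C, H4C or H4-, or an older HIST name). This gave 78 probe sets of 59 genes, out of 54613 probe sets and 19775 genes with 1 symbol. The tested group was mutated BCWM1 cells (3 arrays), set against parental BCWM1 cells (3 arrays), and the title of the series names the change C1013G in CXCR4, the receptor of the chemokine CXCL12. The labels and title do not say how the mutated cells were made, whether they are 1 clone, or whether the parental cells carried an empty vector. Both groups are the same cell line, no treatment, age or time is labelled, and the labels do not tell whether the 3 samples of each group were grown separately. The p-values thus reflect only how far these samples spread, and that spread may be technical.

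Core histones H2A, H2B, H3 and H4 form the octamer around which DNA is wrapped, and the linker histone H1 binds where DNA enters and leaves it. Replication-dependent histone genes lie in clusters and are transcribed mainly in S phase, when new DNA has to be packed. Their mRNAs have no introns and usually end in a conserved stem-loop in place of a poly(A) tail, which the stem-loop binding protein SLBP recognises. Variant, or replacement, histones such as H3.3, H2A.Z, H2AX and H1.10 are made outside S phase as well, mostly from polyadenylated mRNAs, and are placed in chromatin by dedicated chaperones. The labels describe copying of RNA into biotin-labelled cRNA but do not name the primer, and an oligo(dT) primer would copy mRNAs without a poly(A) tail poorly.

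Of the 59 genes, 43 were replication-dependent by their symbols (49 probe sets), 11 were variants (23 probe sets) and 4 were pseudogenes (5 probe sets). The remaining symbol, H1-10-AS1, fits the prefix but is an antisense RNA and no histone (1 probe set). By RefSeq, 40 of the 43 replication-dependent genes lie on chromosome 6. Histone coding sequences are nearly identical within a family, so single probe sets can read several genes: 25 of the 78 end in _s_at or _x_at, the platform's marks for probe sets that several transcripts can share. A further 29 probe sets list several symbols, at least 1 of them a histone, and are not members.

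Of the replication-dependent genes past the threshold, the promoters of those that changed most in each direction are shown to set sequence beside the measured change: H4C5 and H2BC9, which were higher in mutated cells, and H3C2 and H2BC12, which fell. Each line holds the 250 bases before the transcription start, 5′ to 3′ on the gene's strand, from RefSeq (GRCh38.p14). The positions are chr6:26204360-26204609 (+ strand) for H4C5, chr6:26251364-26251613 (+ strand) for H2BC9, chr6:26032100-26032349 (- strand) for H3C2 and chr6:27146859-27147108 (- strand) for H2BC12. Capitals mark matches, on either strand, to the octamer ATTTGCAT, the TATA box TATAAA and CCAAT. In H2BC12 a pair of TATA matches on opposite strands overlap.
H4C5: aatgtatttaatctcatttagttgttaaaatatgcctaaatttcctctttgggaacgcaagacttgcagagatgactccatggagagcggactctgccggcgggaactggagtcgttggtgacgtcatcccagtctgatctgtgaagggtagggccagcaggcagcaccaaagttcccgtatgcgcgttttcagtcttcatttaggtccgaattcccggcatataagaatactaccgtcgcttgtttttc
H2BC9: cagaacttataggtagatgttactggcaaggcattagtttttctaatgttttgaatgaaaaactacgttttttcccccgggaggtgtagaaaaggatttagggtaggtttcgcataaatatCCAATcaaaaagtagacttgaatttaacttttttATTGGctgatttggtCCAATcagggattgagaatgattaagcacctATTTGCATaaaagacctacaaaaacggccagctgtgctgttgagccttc
H3C2: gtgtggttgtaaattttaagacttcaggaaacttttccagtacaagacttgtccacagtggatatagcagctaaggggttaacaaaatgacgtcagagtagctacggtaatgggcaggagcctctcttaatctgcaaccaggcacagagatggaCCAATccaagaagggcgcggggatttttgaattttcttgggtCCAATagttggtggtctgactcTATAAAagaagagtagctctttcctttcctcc
H2BC12: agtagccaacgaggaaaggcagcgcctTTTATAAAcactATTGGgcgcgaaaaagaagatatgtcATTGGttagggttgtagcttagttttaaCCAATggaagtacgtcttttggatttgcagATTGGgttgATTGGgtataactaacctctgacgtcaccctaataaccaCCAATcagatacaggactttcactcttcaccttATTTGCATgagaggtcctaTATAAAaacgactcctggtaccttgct

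The octamer, the motif read by the POU factors OCT1 and OCT2, was found in 10 of 13 promoters of replication-dependent H2B members and in 6 of 8 of H2A members. It was found in 0 of 6 H1, 0 of 6 H3, 0 of 7 H4 and 0 of 11 variant promoters, and in 1.66% of the 27305 promoters in the table. H2BC9, which rose, and H2BC12, which fell, both hold it, 49 and 46 bases before the start counted to its first base. The promoter of H3C2 has a TATA match 32 bases before the start, and that of H4C5 has none of the 3 motifs in this window. TATAAA was present in 11 of the 13 H2B promoters, against 11.1% of all promoters, and CCAAT in all 13, against 33% of all. The other replication-dependent families and the variants held TATAAA in 45.5% to 66.7%. CCAAT was also in all H1, H2A and H3 promoters and 10 of 11 variant ones, but in only 2 of 7 H4 promoters. These are matches of letters only.

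The linker histone variant H1-10 fell in mutated cells, to 0.645 times the parental mean. The clustered genes H3C2 and H2BC12 fell as well, to 0.626 and 0.822 times. The clustered genes H2BC9 and H4C11 and the variant genes H3-3A, H2AJ and H2AZ2 rose, to between 1.12 and 1.42 times the parental mean. The clustered gene H4C5 was called higher as well, but its parental values were too dim to give a fold. No tested histone probe set differed by 2-fold or more on the log2(intensity + 16) scale on which all log2 changes are given. After the dimmest 40% of all probe sets were left out, 44 histone probe sets of 33 genes were tested with limma, with p-values adjusted by Benjamini-Hochberg over all tested probe sets and a threshold of 0.05. Of these 44, 9 rose (20.5%) and 4 fell (9.09%), against 30.9% and 16.6% of all 32768 tested probe sets. The 9 include the set of H4C5 and the dimmest of H2AJ, which passed the filter on dim probe sets through their mutated values. The 13 calls make 29.5% of the 44, against 47.5% of all, so that histone probe sets passed at a smaller share than the background. By gene, represented by its brightest tested probe set, 6 of 33 rose and 3 fell, against 30.1% and 18.9% of all 13644 tested genes, 49.0% in either direction. The groups did not overlap in 20 of the 44 probe sets (45.5%), against 57.8% of all. Over all tested genes 61.2% had groups that did not overlap.

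The balance of rises and falls depended on how the arrays were scaled. With quantile normalization 3 of the 44 histone probe sets rose and 12 fell, against 23.7% and 23.8% of all, and with median centring of each array 3 rose and 11 fell, against 23.5% and 22.9%. The median log2 change of the 44 was -0.09 as deposited, -0.15 with quantile normalization and -0.17 with median centring, against 0.06, -0.02 and -0.02 over all tested probe sets. Of the 9 genes called, H4C5, H2BC9, H1-10, H3C2 and H2BC12 kept their calls in every alternative setting that tested them. The setting without shared suffixes did not test H2BC9, H1-10 and H3C2, whose single tested probe sets are _x_at, _s_at and _s_at sets, and leaving out the dimmest 60% removed H4C5. H4C11, H2AJ, H2AZ2 and H3-3A lost their calls in some settings, and H4C11, H2AJ and H3-3A were not tested without shared suffixes either. H4C5 passed the filter on dim probe sets through its mutated values, which limits what its kept calls can show.

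**Figure D1:**
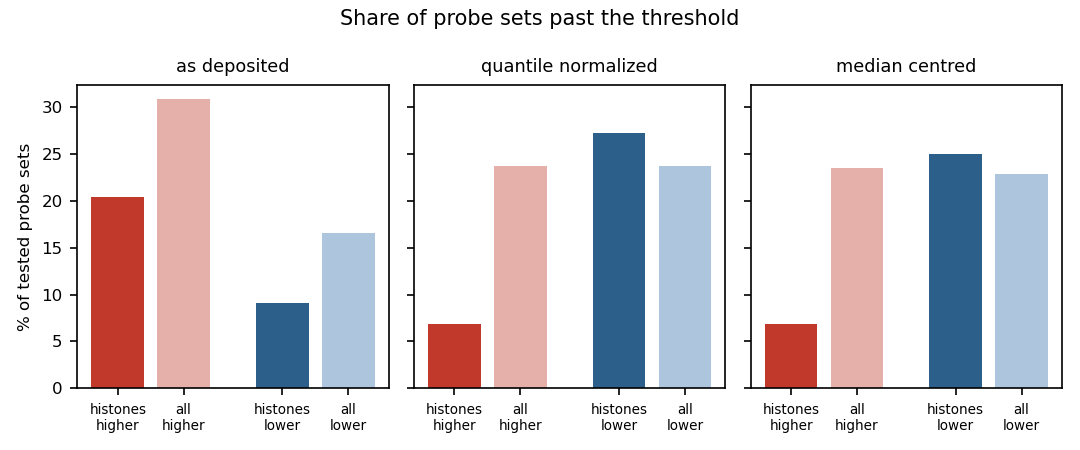
Bars give the percentage of tested probe sets past an adjusted p of 0.05 for the 44 histone probe sets (dark) and all 32768 tested (pale), higher in mutated cells (red) or lower (blue), under 3 scalings. As deposited, 20.5% of histone probe sets were higher and 9.09% lower; with quantile normalization these were 6.82% and 27.3%.

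**Figure D2:**
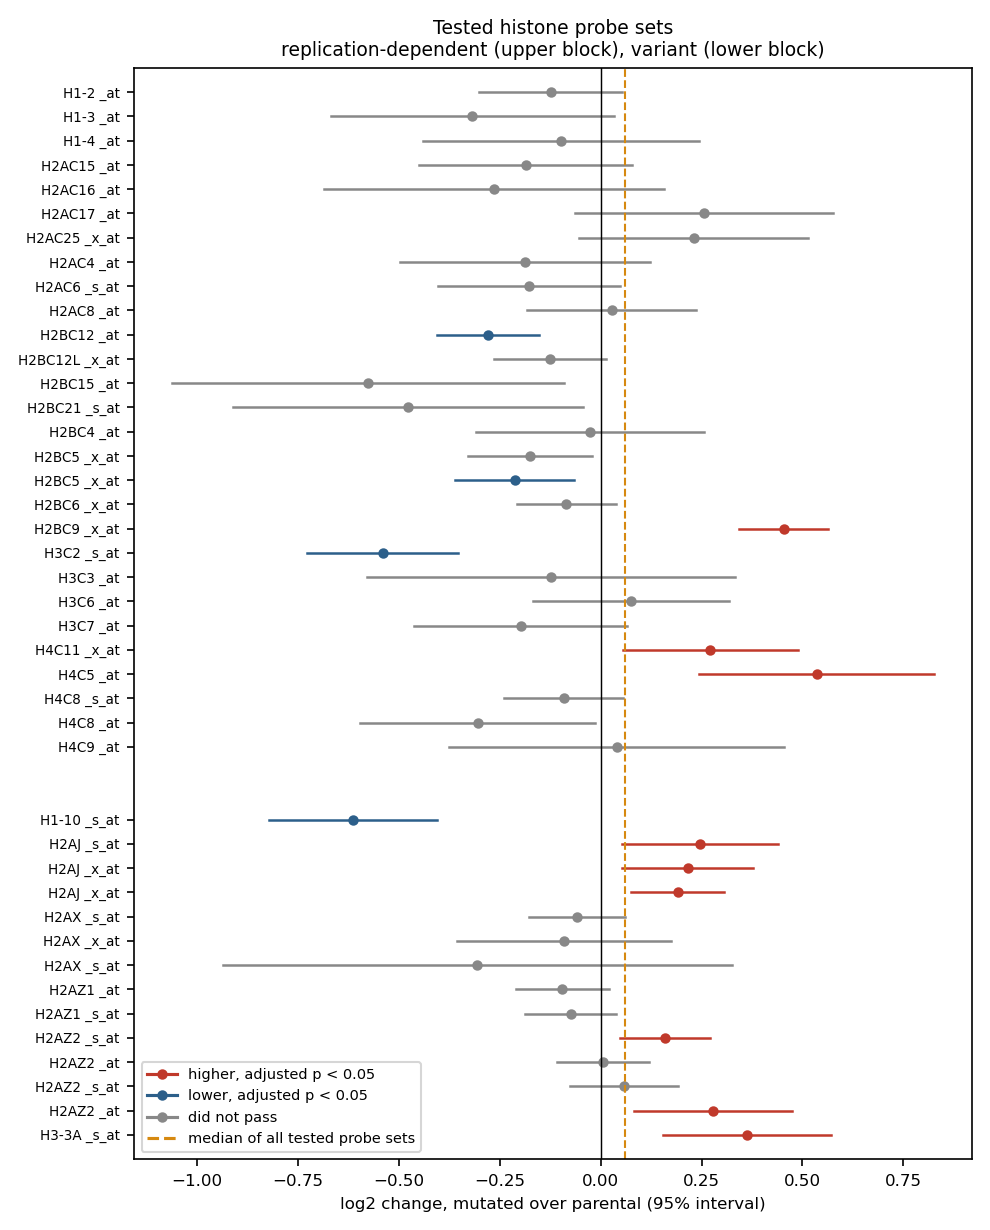
Each point is the log2 change, mutated over parental, of 1 tested histone probe set (pseudogenes left out), with its 95% interval from limma; red and blue points passed the threshold, and the dashed line is the median of all tested probe sets (0.06). The points lie between -0.61 (H1-10) and 0.54 (H4C5), and most intervals cross 0.

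A limit of these arrays is that the 34 histone probe sets (26 genes) outside the test were dim, at intensities from 1 to 29.95. They include 17 replication-dependent and 5 variant genes. Array medians were 30.9 to 31.8 in mutated and 28.5 to 29.1 in parental cells, and 38 of the 78 histone probe sets lay under the median on all 6 arrays. Only 8 of the 28 tested replication-dependent probe sets had a mean over 100, against 11 of the 14 tested variant ones. Over the tested members with a mean over 100, the median SD of the log2 values was 0.061 in mutated and 0.046 in parental cells. Below that mean it was 0.19 and 0.14. The 31 probe sets that did not pass had 95% intervals of ±0.11 to ±0.63 around the log2 change, so that modest differences in the dim ones were not detectable. The 6 arrays limit the precision.

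H1-10, which encodes the replacement linker histone H1.10, had intensities of 284, 330.06 and 259 in mutated cells, against 445, 453 and 455 in parental cells. All 3 mutated samples lay below the parental ones, and the spread was wider in mutated cells. The means were 291 ± 36.0 and 451 ± 5.43 (SD, n = 3 each), a log2 change of -0.61 (SE 0.087; adjusted p = 0.0016, limma). The single probe set of this gene carries the suffix _s_at. H1-2, a replication-dependent H1 of somatic cells, had 724, 669 and 641 in mutated cells, against 749, 788 and 684 in parental cells. These groups overlapped, and the log2 change of -0.12 did not pass (95% interval -0.30 to 0.054). H1-3 (-0.32) and H1-4 (-0.098) did not pass either, so 0 of the 3 tested replication-dependent H1 genes passed, against 49.0% of all tested genes. H1-3 passed as lower with quantile normalization (-0.50; limma, adjusted p = 0.028) and without mutated replicate 1 (-0.45; adjusted p = 0.035). H1-1, H1-5 and the testis H1-6 were too dim to be tested, as were the germline variants H1-7 and H1-8.

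Among H2B genes, 8 of the 9 tested replication-dependent probe sets had groups that did not overlap: 7 lay lower in mutated cells and 1, that of H2BC9, higher. Over all tested probe sets 21.4% lay wholly lower and 36.3% wholly higher. Of the 8, 3 passed the threshold. Of the 9, 6 carry a shared suffix and may read some of the same transcripts. H2BC12, a clustered H2B gene, had 687, 706 and 743 in mutated cells, against 891, 865 and 843 in parental cells, with a gap between the groups larger than the spread within either. The log2 change was -0.28 (SE 0.053; adjusted p = 0.0055, limma), from means of 712 ± 28.4 and 866 ± 24.2 (SD, n = 3 each). H2BC9 rose. Its mutated values were 149.8, 151 and 154, against 109, 103 and 106 in parental cells, with a narrow spread in both groups. Its mean rose to 152 ± 1.90, against 106 ± 2.97 in parental cells (SD, n = 3 each), a log2 change of 0.45 (SE 0.046; adjusted p = 3.8e-04, limma).

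Of the pair of H2BC5 probe sets, both _x_at, 1 passed at -0.21 (limma, adjusted p = 0.028) and the brighter, which represents the gene, did not at -0.18 (adjusted p = 0.063). H2BC6 (-0.085) and H2BC12L (-0.12), an H2B-like gene on chromosome 21, had all mutated values below all parental ones but did not pass. The dim H2BC15 had 20.4, 13.2 and 24.97 in mutated cells, against 26.7, 53.3 and 32.6 in parental cells, and H2BC21 had 20.8, 24.1 and 10.5 against 40.2, 25.2 and 29.5. Both were lower in every mutated sample, by -0.57 and -0.48 on the log2 scale, with wide intervals and adjusted p of 0.055 and 0.069 (limma). H2BC4 overlapped between the groups (-0.025). With quantile normalization or median centring H2BC5, H2BC6, H2BC12L and H2BC15 passed as lower, with adjusted p of 0.0059 to 0.046 (limma), and H2BC21 passed as lower with median centring (0.041).

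Several H2B genes also share probe sets. A pair of _x_at sets that list H2BC4, H2BC6, H2BC7, H2BC8 and H2BC10 fell, by 0.35 and 0.29 on the log2 scale (limma, adjusted p = 0.0039 and 0.0093). The first had 250.4, 227 and 224 in mutated cells, against 313, 294 and 297 in parental cells. Another set of the same 5 genes overlapped between the groups (0.16), and 2 sets of H2BC11 and H2BC8 did not pass (0.21 and -0.056).

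**Figure D3:**
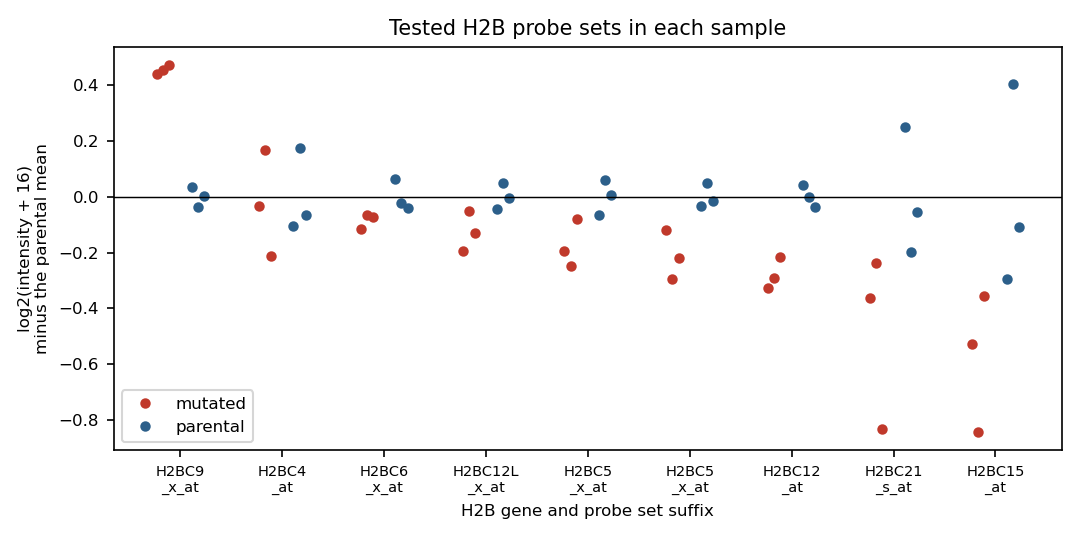
Points are log2(intensity + 16) of each sample minus the parental mean, for the 9 tested replication-dependent H2B probe sets, with mutated samples in red on the left of each pair and parental samples in blue. The 3 mutated values lie above the parental ones in H2BC9, overlap them in H2BC4 and lie below them in the other 7.

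Of the replication-dependent H2A genes 0 of 7 tested passed in limma, against 49.0% of all tested genes, with log2 changes from -0.26 (H2AC16) to 0.26 (H2AC17), and all 7 had overlapping groups. H2AC6 had 75.04, 65.2 and 57.2 in mutated cells, against 76.4, 82.4 and 70.0 in parental cells (-0.18). The others, H2AC15 (-0.19), H2AC4 (-0.19), H2AC8 (0.027) and H2AC25 (0.23), had means between 23.1 and 36.5 in either group. Some passed in alternative settings (limma): H2AC6 as lower with quantile normalization (-0.36; adjusted p = 0.016), and H2AC4 (-0.33; 0.012) and H2AC15 (-0.30; 0.030) as lower without mutated replicate 3. H2AC25 passed as higher without parental replicate 3 (0.35; adjusted p = 0.020). A shared set that lists 6 H2A genes, among them H2AC17, rose with 37.7, 34.99 and 28.1 in mutated cells, against 20.1, 19.8 and 25.4 in parental cells (log2 change 0.39; limma, adjusted p = 0.014). The brightest shared H2A set, of H2AC18 and H2AC19, overlapped between the groups, at 3016, 3280.1 and 2486 in mutated cells and 3052, 2858 and 3244 in parental cells.

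The H3 gene H3C2 fell. It had 54.2, 51.2 and 44.2 in mutated cells, against 84.05, 73.0 and 82.0 in parental cells, with no overlap. Its mean was 49.9 ± 5.10 in mutated and 79.7 ± 5.87 in parental cells (SD, n = 3 each), a log2 change of -0.54 (SE 0.078; adjusted p = 0.0017, limma). The probe set is an _s_at set. H3C3 (-0.12), H3C6 (0.075) and H3C7 (-0.20) overlapped between the groups and did not pass. Of the shared H3 sets, 1 that lists 10 H3 genes, H3C2 among them, fell by 0.20 on the log2 scale (limma, adjusted p = 0.015), and the other tested one did not pass (-0.036).

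Of the tested H4 genes, H4C5 and H4C11 rose and H4C8 and H4C9 did not pass. H4C5 had 28.7, 21.8 and 32.95 in mutated cells, against 10.5, 17.2 and 14.9 in parental cells. All 3 parental values and 2 of the 3 mutated ones lie under the median of their array. H4C5 passed the filter on dim probe sets through its mutated values: the lowest mean that passed was an intensity of 18.0, and on the same scale H4C5 averaged 27.6 in mutated and 14.1 in parental cells. Its log2 change was 0.54 (SE 0.12; adjusted p = 0.011, limma), and with no filter on dim probe sets the adjusted p was 0.024. Of the 44 tested histone probe sets 5 had 1 group below that level, and 2 of these were called, that of H4C5 and the dimmest of H2AJ. H4C11, on an _x_at set, had 166, 171 and 195 in mutated cells, against 135, 162 and 136 in parental cells. The lowest mutated value is close to the highest parental one. The log2 change of 0.27 (SE 0.090) passed with an adjusted p of 0.045 (limma) but lost its call in 11 of 16 alternatives, with adjusted p up to 0.41. H4C8 gave -0.091 and -0.30 on its 2 sets and H4C9 gave 0.040. The brighter H4C8 set passed as lower with quantile normalization (-0.22; limma, adjusted p = 0.021). The brightest shared H4 set, which lists 14 H4 genes, overlapped between the groups at 8307, 8129 and 7949 in mutated cells and 7755, 8494 and 7695 in parental cells (log2 change 0.027, SE 0.057).

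**Figure D4:**
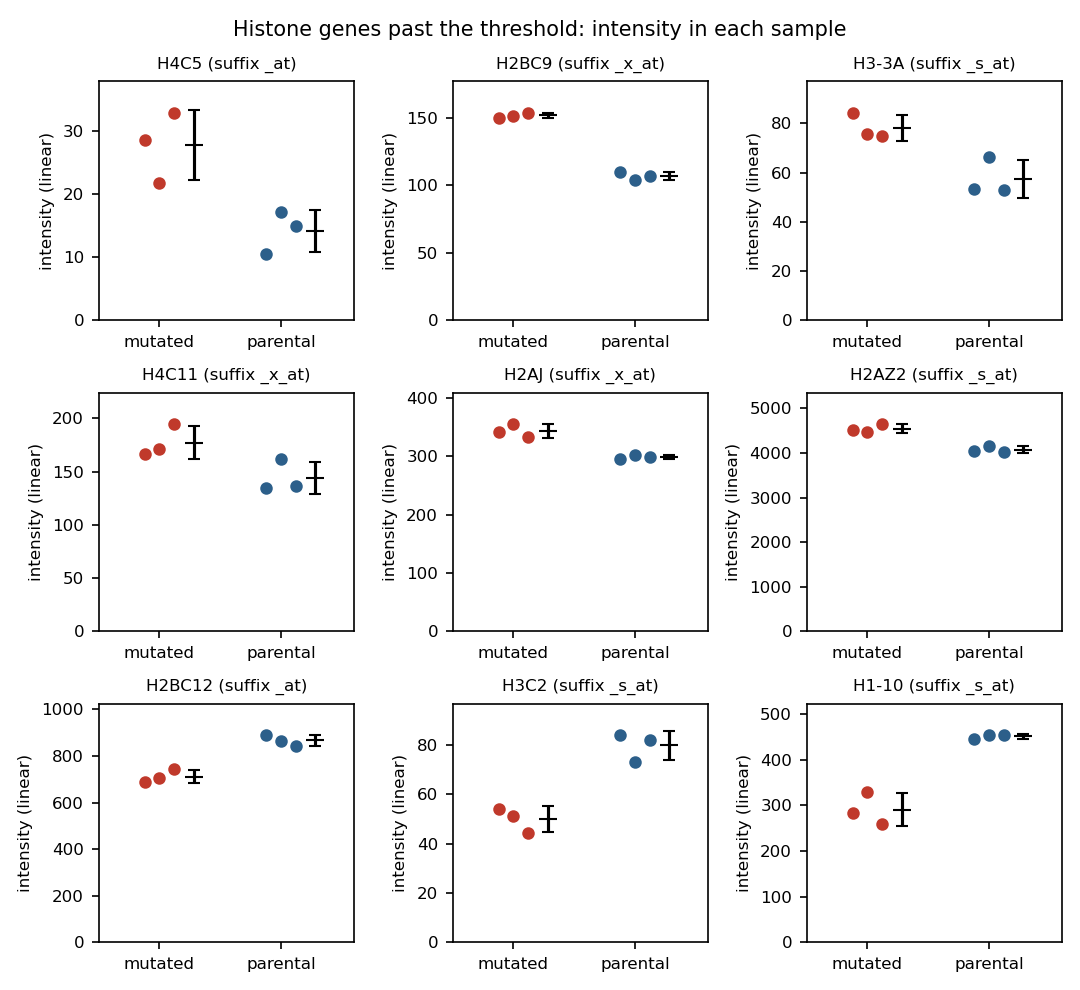
Intensity on a linear axis from 0 in each of the 3 mutated (red) and 3 parental (blue) samples for the 9 histone genes past the threshold, with the group mean ± SD beside the points. The first 6 panels hold the genes that rose and the last 3 those that fell; no panel has overlapping groups.

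H2AZ2, which encodes the H2A.Z.2 form of this promoter-associated variant, rose on 2 of its 4 probe sets. On the set that represents it the values were 4517, 4466 and 4656 in mutated cells, against 4035, 4157 and 4012 in parental cells, a log2 change of 0.16 (SE 0.047; adjusted p = 0.029, limma). Its other sets gave 0.28 (limma, adjusted p = 0.0295), 0.058 and 0.0066. Without the shared suffixes, the sets at 0.28 and 0.0066 remain, and the brighter, at 0.0066, represents the gene (limma, adjusted p = 0.93). The call was lost in 9 of 17 alternatives. H2AZ1, which encodes H2A.Z.1, had 10328, 10153 and 9740 in mutated cells, against 10594, 10684 and 10529 in parental cells. All mutated values lay lower, yet the log2 change of -0.074 did not pass (95% interval -0.19 to 0.039), nor did that of the second probe set (-0.094). The difference between the responses of H2AZ1 and H2AZ2 was not tested.

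H2AJ, an H2A variant gene outside the clusters, was called higher on its 3 tested probe sets, which all carry a shared suffix. The dimmest of them passed the filter through its mutated values (22.5, against 16.5 in parental cells) and is no support for a rise. The set of H2AJ without a shared suffix was too dim to be tested, and its groups overlapped. The brightest tested set had 340.4, 355 and 333 in mutated cells, against 294, 302 and 298 in parental cells. The log2 change was 0.19 (SE 0.048; adjusted p = 0.017, limma), and 0.22 and 0.25 on the others. The call was lost with quantile normalization (0.098; limma, adjusted p = 0.135) and median centring (0.11; adjusted p = 0.137), as it was without mutated replicate 2 (adjusted p = 0.0603) or parental replicate 1 (0.056). H2AX, the variant that is phosphorylated at DNA breaks, had 1603, 1643 and 1688 in mutated cells, against 1680.3, 1769 and 1688 in parental cells. The groups overlapped and the log2 change of -0.058 did not pass (95% interval -0.18 to 0.061). Its other tested sets gave -0.091 and -0.30 and did not pass, the second with 1 parental sample at 195 and the others at 97.2 and 86.9. The X-linked germline variants H2AP and H2BW2 were too dim to be tested.

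H3.3 is encoded by H3-3A and H3-3B, and most of its probe sets list both genes with a pseudogene or a microRNA. The set that names H3-3A alone, an _s_at set, rose, with 84.4, 75.7 and 74.9 in mutated cells, against 53.4, 66.4 and 52.8 in parental cells (log2 change 0.36, SE 0.087; adjusted p = 0.014, limma). That call was lost with quantile normalization (0.19; adjusted p = 0.126). The 8 sets that list both genes had means from 529.9 to 10918. Of these 2 fell, by 0.31 (limma, adjusted p = 0.0022) and 0.20 (adjusted p = 0.017) on the log2 scale, 1 rose by 0.18 (adjusted p = 0.020) and 5 did not pass, at -0.13 to -0.082. The set that fell most had 4993, 4923 and 4906 in mutated cells, against 6151, 6338 and 5938 in parental cells. Probe sets for H3.3 thus went in both directions. Which of them follows either gene was not tested. H3-4, a testis H3, was too dim to be tested.

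**Figure D5:**
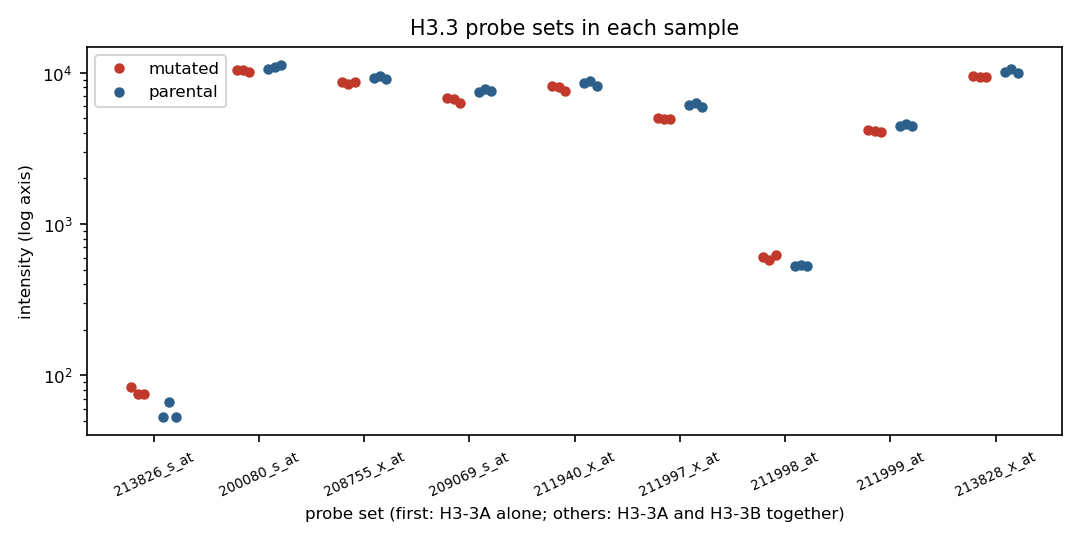
Intensity (log axis) of the 9 probe sets for H3.3 in each mutated (red, left) and parental (blue, right) sample. The first set names H3-3A alone and lies higher in mutated cells; of the other 8, which list H3-3A and H3-3B, 1 lies higher, 6 lie wholly lower and 1 overlaps. Levels of different probe sets cannot be compared.

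Along chromosome 6, by order in the RefSeq table, 5 of the 23 tested replication-dependent genes were called, against 49.0% of all tested genes. None lay next to another called one, but the spacing of so few calls was not tested. H3C2 was the first of the 23, H4C5 the tenth, H2BC9 the fifteenth, H2BC12 the seventeenth and H4C11 the nineteenth. Of the 7 genes with several tested probe sets, the log2 changes had the same sign in 6; the exception was a pseudogene.

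Several genes of histone gene transcription and mRNA processing fell in mutated cells, among them DHX9, SRRT and POU2AF1, whereas SLBP and NPAT did not pass. Of 29 tested genes of histone gene transcription and mRNA processing, 2 rose, 9 fell and 18 did not pass, against 30.1% higher and 18.9% lower over all genes, and their median log2 change was -0.048, against 0.038. DHX9, an RNA helicase, had 742, 760.2 and 789 in mutated cells, against 1085, 1115 and 1067 in parental cells (log2 change -0.50; limma, adjusted p = 3.2e-04). SRRT, a partner of the nuclear cap-binding complex that takes part in the 3′ end formation of histone mRNAs, fell by 0.42 (adjusted p = 6.4e-04), though not on its set without a shared suffix (-0.11). POU2AF1, the B cell coactivator of the octamer factors, fell by 0.30 (limma, adjusted p = 0.0016). The cleavage complex genes CPSF2 (-0.30), SYMPK (-0.20) and CSTF2 (-0.28) fell, and CASP8AP2 (0.18) and HINFP (0.23), an activator of H4 genes, rose. Both rises were lost with quantile normalization (0.11 and 0.12, limma adjusted p = 0.10 and 0.13) and median centring (0.10 and 0.15, adjusted p = 0.185 and 0.075). In these settings 0 genes of the list were higher, against 24.9% and 22.4% of all genes. Lower were 11 (37.9%) and 13 (44.8%), against 25.6% and 26.1% of all genes. SLBP had 4076, 3873 and 3545 in mutated cells, against 3998, 3947 and 3971 in parental cells (-0.054), and NPAT, the coactivator of replication-dependent histone genes, gave -0.048; neither passed.

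Of 37 tested genes of histone chaperones and deposition, 5 rose (13.5%), 8 fell (21.6%) and 24 did not pass, against 30.1% and 18.9% of all genes. Their median log2 change was -0.075, against 0.038 over all genes. ASF1A, a chaperone that hands on H3 and H4, had 999, 1011 and 1001 in mutated cells, against 789, 802 and 782 in parental cells (log2 change 0.34; limma, adjusted p = 0.0011). HJURP, the chaperone of the centromeric H3 variant CENP-A, rose by 0.34 (adjusted p = 0.0023), while CENPA itself fell by 0.18 (adjusted p = 0.034). SUPT6H, a chaperone of transcription elongation, fell by 0.38 (limma, adjusted p = 0.0046). HIRA (-0.20) and UBN1 (-0.29), which deposit H3.3, fell and CABIN1, of the same complex, rose (0.33). DAXX (0.10) and ATRX (-0.036), which place H3.3 at repeats, did not pass. With quantile normalization 13 of these genes were lower (35.1%, against 25.6% of all genes), and with median centring 16 (43.2%, against 26.1%).

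Of 51 tested S phase genes 12 rose (23.5%), 18 fell (35.3%) and 21 did not pass, against 30.1% and 18.9% of all genes (median log2 change -0.058, against 0.038). Among them were UHRF1 (-0.46), RRM2 (-0.42) and POLA1 (-0.39), which fell (limma, adjusted p at most 0.0013). The summed intensity of the S phase list ran from 79661 to 80890 in mutated and 82534 to 85131 in parental cells. Of 30 genes of G2 and mitosis 14 rose (46.7%), 1 fell (3.33%) and 15 did not pass (median 0.14), with BIRC5 (0.51), CDC25C (0.39) and AURKB (0.38) rising, and their summed intensity was 69664 to 71249 in mutated and 63054 to 65522 in parental cells. With median centring 6 S phase genes (11.8%) and 9 mitotic ones (30.0%) were higher, against 22.4% of all genes. Lower were 22 (43.1%) and 3 (10%), against 26.1%. With quantile normalization 11 S phase genes (21.6%) and 10 mitotic ones (33.3%) were higher, against 24.9%. Lower were 20 (39.2%) and 2 (6.67%), against 25.6%. The part of these shifts in the histone differences was not tested. In bulk RNA, fewer cells in a phase and less RNA per cell cannot be told apart.

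All 11 B and plasma cell markers with a probe set of their own lay above the array median in both groups. Their summed intensities were 38479 to 40421 in mutated and 41888 to 43328 in parental cells. Of the 11, 2 rose and 5 fell, against 30.1% and 18.9% of all tested genes. The plasma cell markers PRDM1, SDC1 and CD38 and the IgM heavy chain gene IGHM were among those that fell: PRDM1 by 1.59, SDC1 by 0.87, CD38 by 0.65 and IGHM by 0.46 on the log2 scale (limma, adjusted p at most 7.8e-04). The B cell marker CD22 fell too (-0.41), whereas CD79B (0.63) and CD79A (0.23) rose. IRF4 (-0.020), MS4A1, PAX5 and BLNK did not pass. Markers of other cell types had low sums. T cell markers summed to 108 to 116 in mutated and 98.1 to 104 in parental cells, monocyte markers to 55.7 to 77.4 and 93.8 to 119, and NK cell markers to 159 to 219 and 173 to 213. CD3D, CD3G, CD14 and LYZ had means under 10 in both groups. In contrast CD2 (43.9 in mutated and 31.4 in parental cells), CD28 (39.7 and 32.6), MARCO (34.2 and 69.7), NKG7 (41.4 and 48.3) and NCR1 (95.5 and 102) had means above the array medians. CD28 was called higher (0.20; limma, adjusted p = 0.025) and MARCO lower (-0.79; adjusted p = 0.013). Stromal and epithelial markers summed to 479 to 575 in mutated and 775 to 854 in parental cells, mostly from COL1A1, at 442 and 710.3. KRT8 lay above the array medians as well, at 36.5 and 50.2, whereas COL3A1 and PDGFRB were under 10. Their part in the histone differences was not tested.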

How the data were processed

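RNA of 3 mutated and 3 parental BCWM1 samples was measured on 1-colour arrays. Per the labels, RNA was column-purified and copied into biotin-labelled cRNA. The deposited values are probe set intensity on a linear scale. How the authors summarised, background-corrected and normalised them is stated nowhere in the labels or file headers, and no detection calls were used. Values were transformed as log2(intensity + 16), which understates changes of dim genes. The dimmest 40% of probe sets by mean were left out, which left 32768 for the fit in limma 3.58.1 (R 4.3.3; lmFit and eBayes, two-sided), with Benjamini-Hochberg adjustment over all of them and a threshold of 0.05. Each gene takes the value of its brightest tested probe set. Symbols are those of the platform annotation; all 78 histone probe sets matched a RefSeq gene by Entrez ID. Promoter sequences were taken from RefSeq for 51 of 54 histone genes. Plots were made in matplotlib 3.10.9 (Python 3.11.15).

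Members and lists were chosen with earlier results of these data known. By rule, named genes were up to 12 rises and 12 falls past the threshold without overlap, every variant gene, genes with probe sets past the threshold in opposite directions (none) and 3 genes of each list with the smallest adjusted p; other names were chosen after their values were seen. Alternatives were other scalings, filters, pseudocounts of 1 and 64, variance models, array weights, the replicate number as a block, probe sets without shared suffixes, averaging the probe sets of each gene and each sample left out. The tests were checked on simulated data. The deviations of same-numbered samples from their group means correlated at 0.11, 0.027 and 0.11, so the numbers were not taken to pair the samples.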

Additional observations from a re-analysis of the deposited data

How the results depend on the processing

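Higher and lower histone genes numbered 6 and 3 in the reported setting, against 30.1% and 18.9% of all tested genes. They were 3 and 10 with quantile normalization, against 24.9% and 25.6% of all. With median centring they were 3 and 8, against 22.4% and 26.1%. Without probe sets of suffix _s_at or _x_at they were 1 and 1. Shares of all genes were not worked out for this and the following settings, in which the number tested can differ. Lower genes numbered 5 with a pseudocount of 64, with eBayes trend and robust options and with array weights. Higher and lower histone probe sets numbered 9 and 4 as reported, against 30.9% and 16.6% of all tested probe sets. They were 3 and 12 with quantile normalization (23.7% and 23.8% of all) and 3 and 11 with median centring (23.5% and 22.9%). They were 2 and 1 without the shared suffixes, where fewer probe sets were tested and 10137 of all were called against 15553. Higher probe sets numbered 4 with no filter on dim ones, and lower ones 7 with trend and robust options and with array weights. Calls over all probe sets moved too. They numbered 14336 with no filter, 16462 with a pseudocount of 64, 16789 with trend and robust options and 16321 with array weights.

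Leaving out 1 sample gave 3 to 6 higher and 3 to 7 lower genes, 3 to 6 higher and 3 to 8 lower probe sets, and 13064 to 15295 calls in all. Higher genes were 3 without mutated replicate 2 and without parental replicate 1. Higher probe sets were 4 and 3 in those settings, and 5 without mutated replicate 3 or parental replicate 3. Lower genes were 7 and lower probe sets 8 without mutated replicate 3.

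The calls of 5 genes (H4C5, H2BC9, H1-10, H3C2 and H2BC12) held in each alternative that tested them. H2BC9, H1-10 and H3C2 were not tested without shared suffixes, nor H4C5 with the dimmest 60% left out. H4C5 passed the filter on dim probe sets through its mutated values, which limits what its calls can show. H4C11 passed in 5 of 16, H2AZ2 in 8 of 17, H2AJ in 12 of 16 and H3-3A in 15 of 16. None of the called genes turned sign. Genes near 0 that did not pass turned sign: with quantile normalization H2AC8 (-0.050), H3C6 (-0.022) and H4C9 (-0.12), with median centring H2AC8 (-0.052), H3C6 (-0.0041) and H4C9 (-0.039), and with array weights H2AC8 (-0.013), H2BC4 (0.019) and H4C9 (-0.030). With 1 sample left out they ran from -0.20 to 0.074 in H1-4, -0.058 to 0.10 in H2AC8, -0.12 to 0.067 in H2BC4, -0.16 to 0.013 in H3C3, -0.018 to 0.15 in H3C6 and -0.083 to 0.23 in H4C9. The causes were not tested.

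With the replicate number as a block, higher and lower histone genes numbered 4 and 3 of 33 (probe sets 6 and 3 of 44). Calls over all probe sets fell as well, to 14897 from 15553. H4C11 (adjusted p = 0.0668, limma) and H2AZ2 (0.0703) lost their calls. Same-numbered samples had weakly correlated deviations from the group means (0.11, 0.027 and 0.11). Each sample correlated best with its own number, a hint from the data and not the design, since the labels do not pair the samples. Dim probe sets limit the rest: 34 histone probe sets were not tested.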
